A study of Mus musculus with 15 samples.

Results

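The lysosomal gene set described here held 50 genes of the 46120 in the deposited tables, measured by RNA sequencing in mouse hematopoietic stem cells (HSCs). It was made of 28 listed genes and the 22 genes whose symbol starts with Atp6v. The listed genes encode membrane proteins and lipid exporters of the lysosome, its proteases, glycosidases and their cofactors, and the transcription factors Tfeb, Tfe3 and Mitf. The Atp6v genes encode subunits of the V-ATPase, the proton pump of the lysosomal membrane. Members were taken by symbol and not by their values, pseudogenes were left out, and copies on alternate scaffolds were added up, which touched Neu1, Atp6v1c1, Atp6v1e1 and Atp6v1g2. Of the 50 members, 49 had at least 1 read, and Atp6v1g3 had none.

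All 15 libraries came from 100 sorted HSCs each, from the bone marrow of wild-type C57BL/6 mice aged 8 to 10 weeks. In 4 libraries (Nifedipine) the HSCs had been cultured with nifedipine, a dihydropyridine drug and blocker of L-type calcium channels, and in 3 libraries (Control) they had been cultured without it. The cells of both cultured groups had been sorted again from the population that had divided at most 3 times. In 4 libraries (5-FU day4) the HSCs came from mice at day 4 after 5-fluorouracil, an antimetabolite that kills cycling cells and drives surviving HSCs to divide, and in 4 libraries (Untreated) they came from untreated mice. The sources used here give neither the nifedipine dose nor the length of culture, nor whether the libraries of a group came from separate animals or cultures, so the p-values measure the spread between these libraries, which may be technical.

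The lysosome degrades proteins, lipids, glycans and whole organelles in an acid lumen, which the V-ATPase keeps acid by coupling ATP hydrolysis in its cytosolic V1 sector to proton transport through its membrane V0 sector. TFEB, TFE3 and MITF are basic helix-loop-helix factors of the MiT family that bind E-box sequences in the promoters of lysosomal genes, known as CLEAR elements. When nutrients are plentiful, the kinase mTORC1 and the Rag GTPases on the lysosomal surface keep TFEB and TFE3 bound to 14-3-3 proteins in the cytoplasm. Lysosomes and MiT factors are known in HSCs for their part in quiescence and in the clearance of mitochondria.

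The core of the CLEAR element is the palindrome CACGTG, which reads the same on both strands. RefSeq promoter windows from 250 bases before to 50 bases after the gene start (GRCm38.p6) were at hand for 41 of the 50 members, some with more than 1 window. Of these 41 members 12 (29.3%) had a window with CACGTG, against 8.09% of 27025 genes. The longer palindrome TCACGTGA, which contains CACGTG, was in a window of 6 of the 41 (14.6%), against 1.12% of all genes. The same palindrome with 1 more base on each side, as in the full CLEAR consensus, was in 0 of the 41, against 0.37% of all genes. The stretch of Lamp1 is shown because it held 4 copies of CACGTG, the most of any member's window. That of Mcoln1 is shown because it held both palindromes, and the 5 shorter ones because they, with Mcoln1, are the members with TCACGTGA. The window of Ctsd also held a separate CACGTG, which lies outside the stretch shown. Capitals mark CACGTG or, where present, TCACGTGA, and each run is written 5′ to 3′ on the strand of its gene. The coordinates are chr8:13159061-13159160 (+) for Lamp1, chr8:3500419-3500518 (+) for Mcoln1, chr7:142387908-142387937 (−) for Ctsd, chr2:164833757-164833786 (+) for Ctsa, chr16:44139373-44139402 (−) for Atp6v1a, chr8:105566050-105566079 (−) for Atp6v0d1 and chr17:26676387-26676416 (+) for Atp6v0e.
Lamp1: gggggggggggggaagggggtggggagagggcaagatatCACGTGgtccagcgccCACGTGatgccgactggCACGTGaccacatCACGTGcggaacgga
Mcoln1: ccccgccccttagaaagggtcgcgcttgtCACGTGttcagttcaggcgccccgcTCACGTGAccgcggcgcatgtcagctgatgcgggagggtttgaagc
Ctsd: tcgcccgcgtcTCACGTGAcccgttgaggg
Ctsa: ctgTCACGTGAtgcagatgcTCACGTGAcc
Atp6v1a: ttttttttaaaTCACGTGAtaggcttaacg
Atp6v0d1: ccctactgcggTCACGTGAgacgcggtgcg
Atp6v0e: tagcgcgccgaTCACGTGAgcctctgttga
Atp6v0b, Glb1, Gaa, Lgmn and Ctsl were the other members with CACGTG. A match is a description of the letters, not evidence of binding.

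Exon reads per library ran from 17582453 to 22372771 in Nifedipine, from 20145079 to 26673045 in Control, from 9775640 to 17397392 in 5-FU day4 and from 6171730 to 16685285 in Untreated. All 10 HSC marker genes on a marker list had reads in each group, and their summed level was 483 to 525 RPKM in Nifedipine, 343 to 356 in Control, 671 to 728 in 5-FU day4 and 988 to 1070 in Untreated. RPKM is the exon reads per kilobase of exon, scaled by the library total and here also by TMM, so that levels can be compared between genes. Untreated library 3 stood apart with a summed level of 20 mitosis genes of 195 RPKM, against 39.3 to 92.3 in the other Untreated libraries. Library 4 of 5-FU day4 stood apart with 37.8 RPKM of the stromal chemokine gene Cxcl12, against at most 0.0817 in the other libraries of its group. The Untreated libraries 2 and 4 stood apart with a summed level of 10 erythroid genes of 3080 and 3430 RPKM, against 102 and 129 in Untreated 1 and 3. Untreated 2 also had 162 RPKM of Cxcl12, and Untreated 1 had 37.3 RPKM of the endothelial gene Stab2, against 0.169 to 11.2 in the other Untreated libraries. The comparisons with Untreated are therefore also given without Untreated 2 and 4, an alternative chosen after seeing the data. In bulk libraries, fewer cells of a type and less RNA per cell cannot be told apart.

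Cd63, a tetraspanin of late endosomes and lysosomes, had the highest level of the members in every group. It averaged 271 ± 20.5 RPKM in Nifedipine (SD, n = 4), 235 ± 8.37 in Control (n = 3), 171 ± 5.75 in 5-FU day4 (n = 4) and 142 ± 4.21 in Untreated (n = 4). The protease gene Ctsd, the saposin precursor gene Psap, the proteolipid gene Atp6v0c, Lamp2 and Lamp1 came next in Nifedipine, 5-FU day4 and Untreated, in an order that differed between groups. In Control, Gusb at 70.4 RPKM and Atp6v1a at 63.8 stood above Psap at 58.7. Ctsd stood second in Nifedipine at 247 ± 28.4 RPKM, where its libraries overlapped with those of Cd63, and Psap stood second in Untreated at 137 ± 9.23 RPKM, where its libraries also overlapped with those of Cd63. Over all 15 libraries these 6 genes were between the percentiles 95.3 (Lamp1) and 98.5 (Cd63) of 14074 genes by level. The transcription factors lay far lower, with Tfe3 at the percentile 35.5, Mitf at 32.7 and Tfeb at 25.8. Of 48 pairs of neighbours in the order of levels, 6 had no overlap between their libraries in Nifedipine, 18 in Control, 11 in 5-FU day4 and 8 in Untreated, so most neighbours did not differ beyond their spread.

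**Figure D1:**
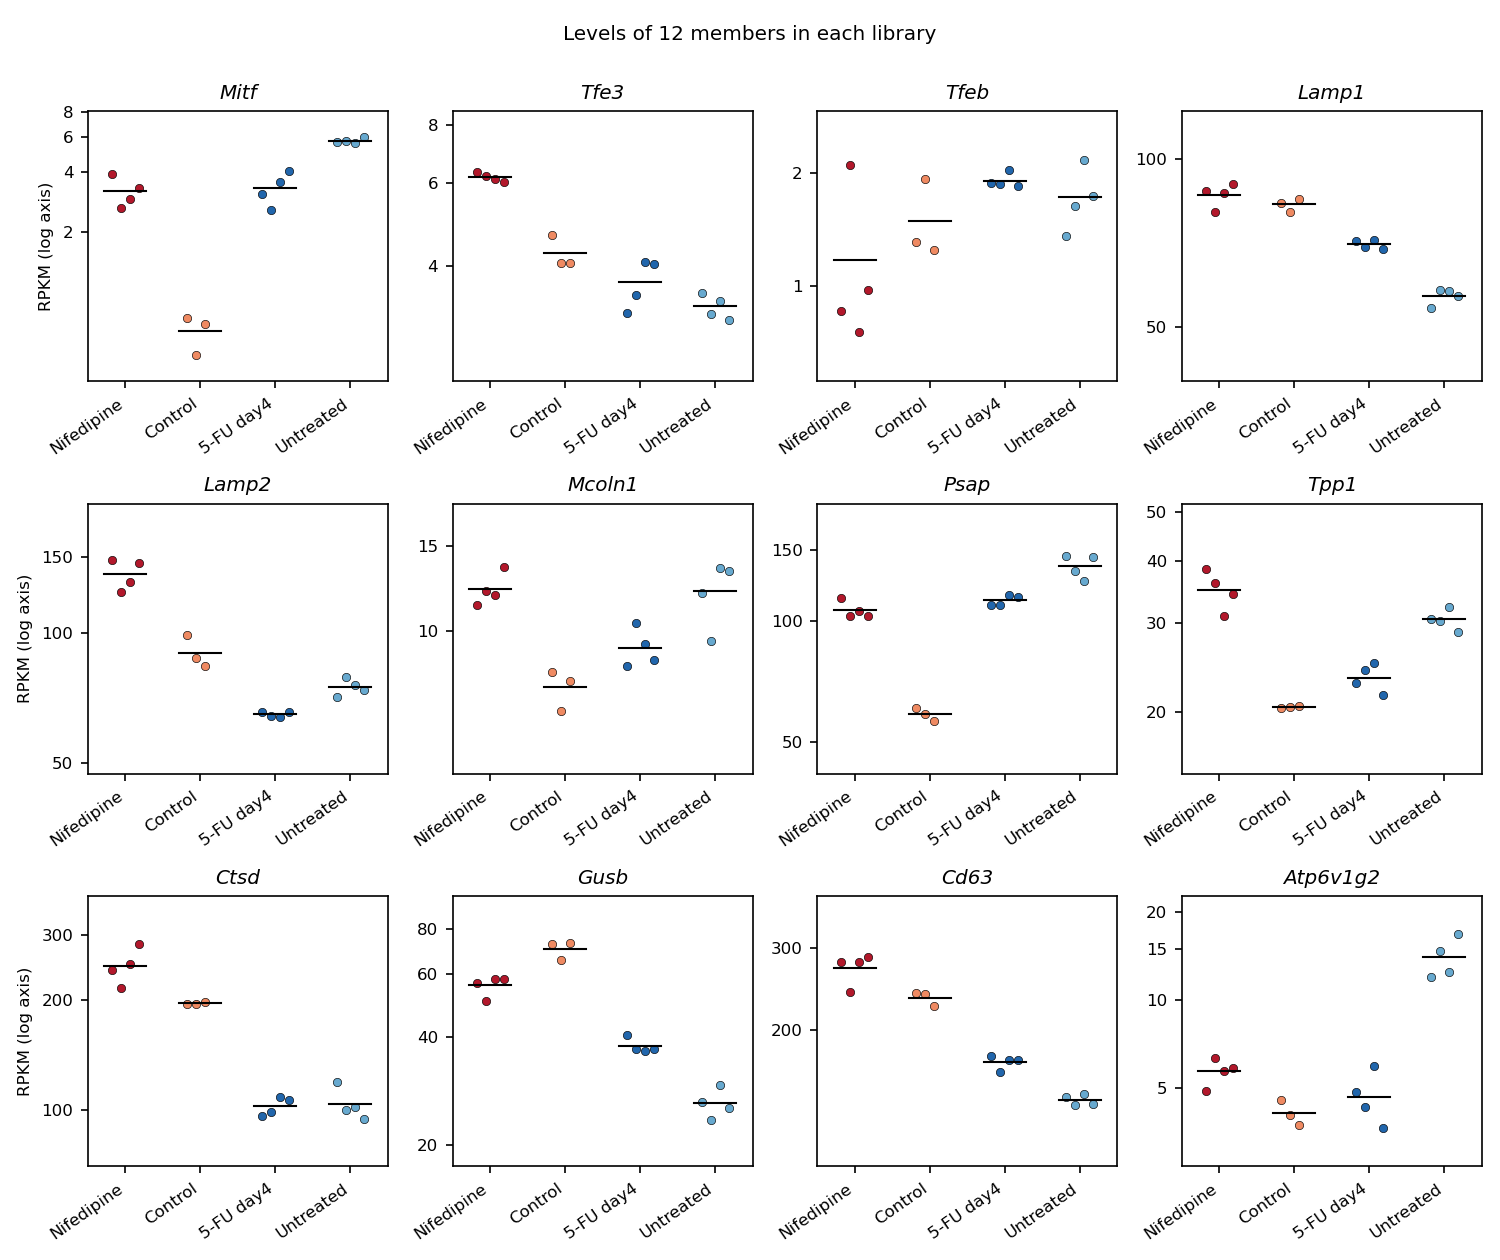
Level (RPKM, log axis) of 12 members in each library, with 1 panel per gene. Groups run from left to right as Nifedipine (n = 4), Control (n = 3), 5-FU day4 (n = 4) and Untreated (n = 4), points are libraries and lines are group means. Mitf was lowest in all 3 Control libraries, at 0.477 to 0.735 RPKM.

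Most V-ATPase subunits with paralogs were read almost wholly from 1 gene. Atp6v0d1, Atp6v0e, Atp6v1b2, Atp6v1c1 and Atp6v1e1 each made up at least 98.4% of the summed RPKM of their subunit in every library. Their paralogs Atp6v0d2, Atp6v0e2, Atp6v1b1, Atp6v1c2 and Atp6v1e2, like the kidney isoform gene Atp6v0a4, were at or close to 0 reads, and apart from Atp6v0e2 in Control against Untreated they passed the filter on low counts in no comparison. Subunits a of V0 and G of V1 had more than 1 expressed isoform. Subunit a, which carries the proton path and directs the pump to its membrane, was shared by Atp6v0a1, Atp6v0a2 and Tcirg1, the gene of the a3 isoform, which is not an Atp6v symbol.

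Atp6v0a1 made up 27.1 ± 2.62% of subunit a in Nifedipine, 18.8 ± 0.796% in Control, 15.3 ± 1.5% in 5-FU day4 and 23.0 ± 4.67% in Untreated. Atp6v0a2 made up 37.5 ± 3.38% in Nifedipine, 50.6 ± 3.67% in Control, 37.2 ± 4.27% in 5-FU day4 and 29.3 ± 2.71% in Untreated. Tcirg1 made up 35.4 ± 1.65% in Nifedipine, 30.6 ± 3.2% in Control, 47.4 ± 3.32% in 5-FU day4 and 47.6 ± 6.57% in Untreated. Thus Atp6v0a2 had the highest mean share in Control and in Nifedipine, and Tcirg1 in 5-FU day4 and Untreated. In Nifedipine the shares of Atp6v0a2, 32.7 to 40.7%, overlapped with those of Tcirg1, 33.3 to 37.2%. The Control shares of Atp6v0a2, 46.5 to 53.4%, lay above its shares in Nifedipine, 5-FU day4 (34.7 to 43.6%) and Untreated (26.0 to 32.0%). Of subunit G, a part of the stalk that joins V1 to V0, Atp6v1g2 made up 9.53 ± 1.44% in Nifedipine, 8.35 ± 1.25% in Control, 12.4 ± 2.18% in 5-FU day4 and 26.5 ± 3.14% in Untreated, and Atp6v1g1 the rest. The Untreated shares of Atp6v1g2, 23.5 to 30.9%, lay above those of every other library. These shares are descriptions and were not tested.

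**Figure D2:**
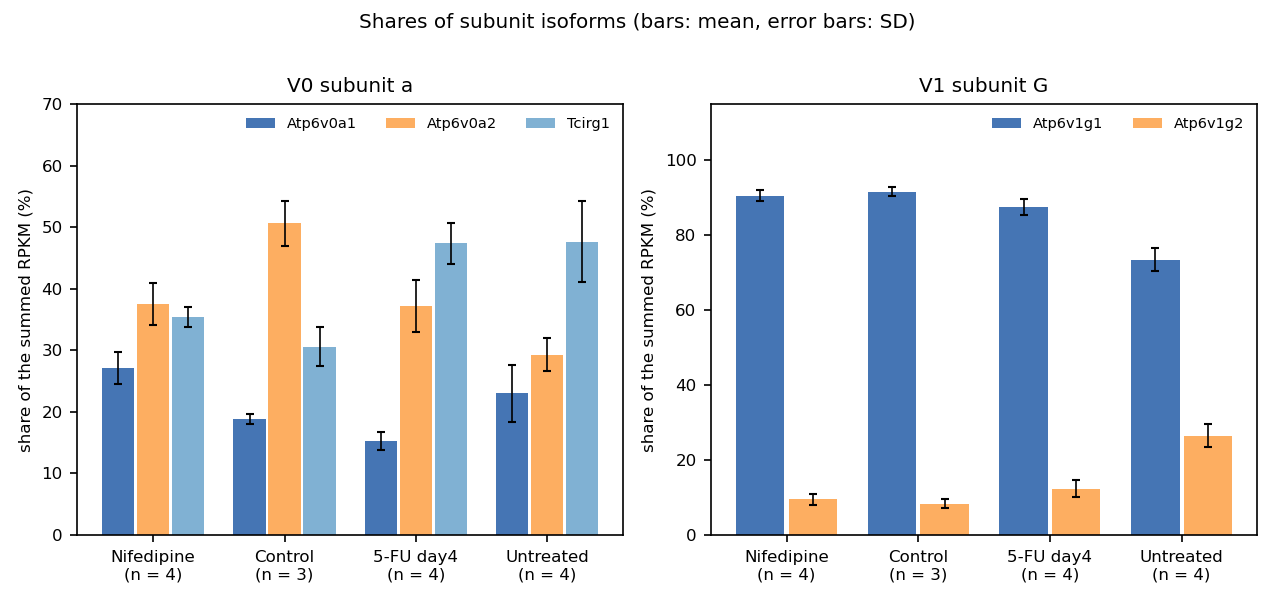
Share of each isoform gene in the summed RPKM of V0 subunit a (Atp6v0a1, Atp6v0a2, Tcirg1) and of V1 subunit G (Atp6v1g1, Atp6v1g2), in percent, by group from Nifedipine to Untreated. Bars are means and error bars are SD over libraries. Atp6v0a2 had the highest share of subunit a in Control, 50.6%, and Atp6v1g2 had its highest share of subunit G in Untreated, 26.5%.

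Nifedipine was compared with Control to ask what the calcium channel blocker changes in cultured HSCs. Most of the lysosomal genes were higher with nifedipine. Of 43 members that passed the filter, 30 were higher and 2 lower at an adjusted p of 0.05 (edgeR quasi-likelihood test, Benjamini-Hochberg over all genes tested), where 25.8% of all 12805 genes tested were higher and 24.2% lower (49.9% in either direction). The median log2 change of the members was 0.37, against 0.02 for all genes. In 33 members every Nifedipine library lay above every Control library, and in 2 every one lay below, against 25.8% and 25.5% of all genes. By role, 2 of 3 transcription factors were higher, 6 of 7 genes for membrane proteins and lipid export, 8 of 10 for proteases, 6 of 8 for glycosidases, lipase and cofactors, and 8 of 15 for the V-ATPase. The 2 lower members were Gusb and Atp6v0a2. The number of higher members was 28 to 33 under the 17 alternative settings, and 25 of the 30 were higher in each of them.

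**Figure D3:**
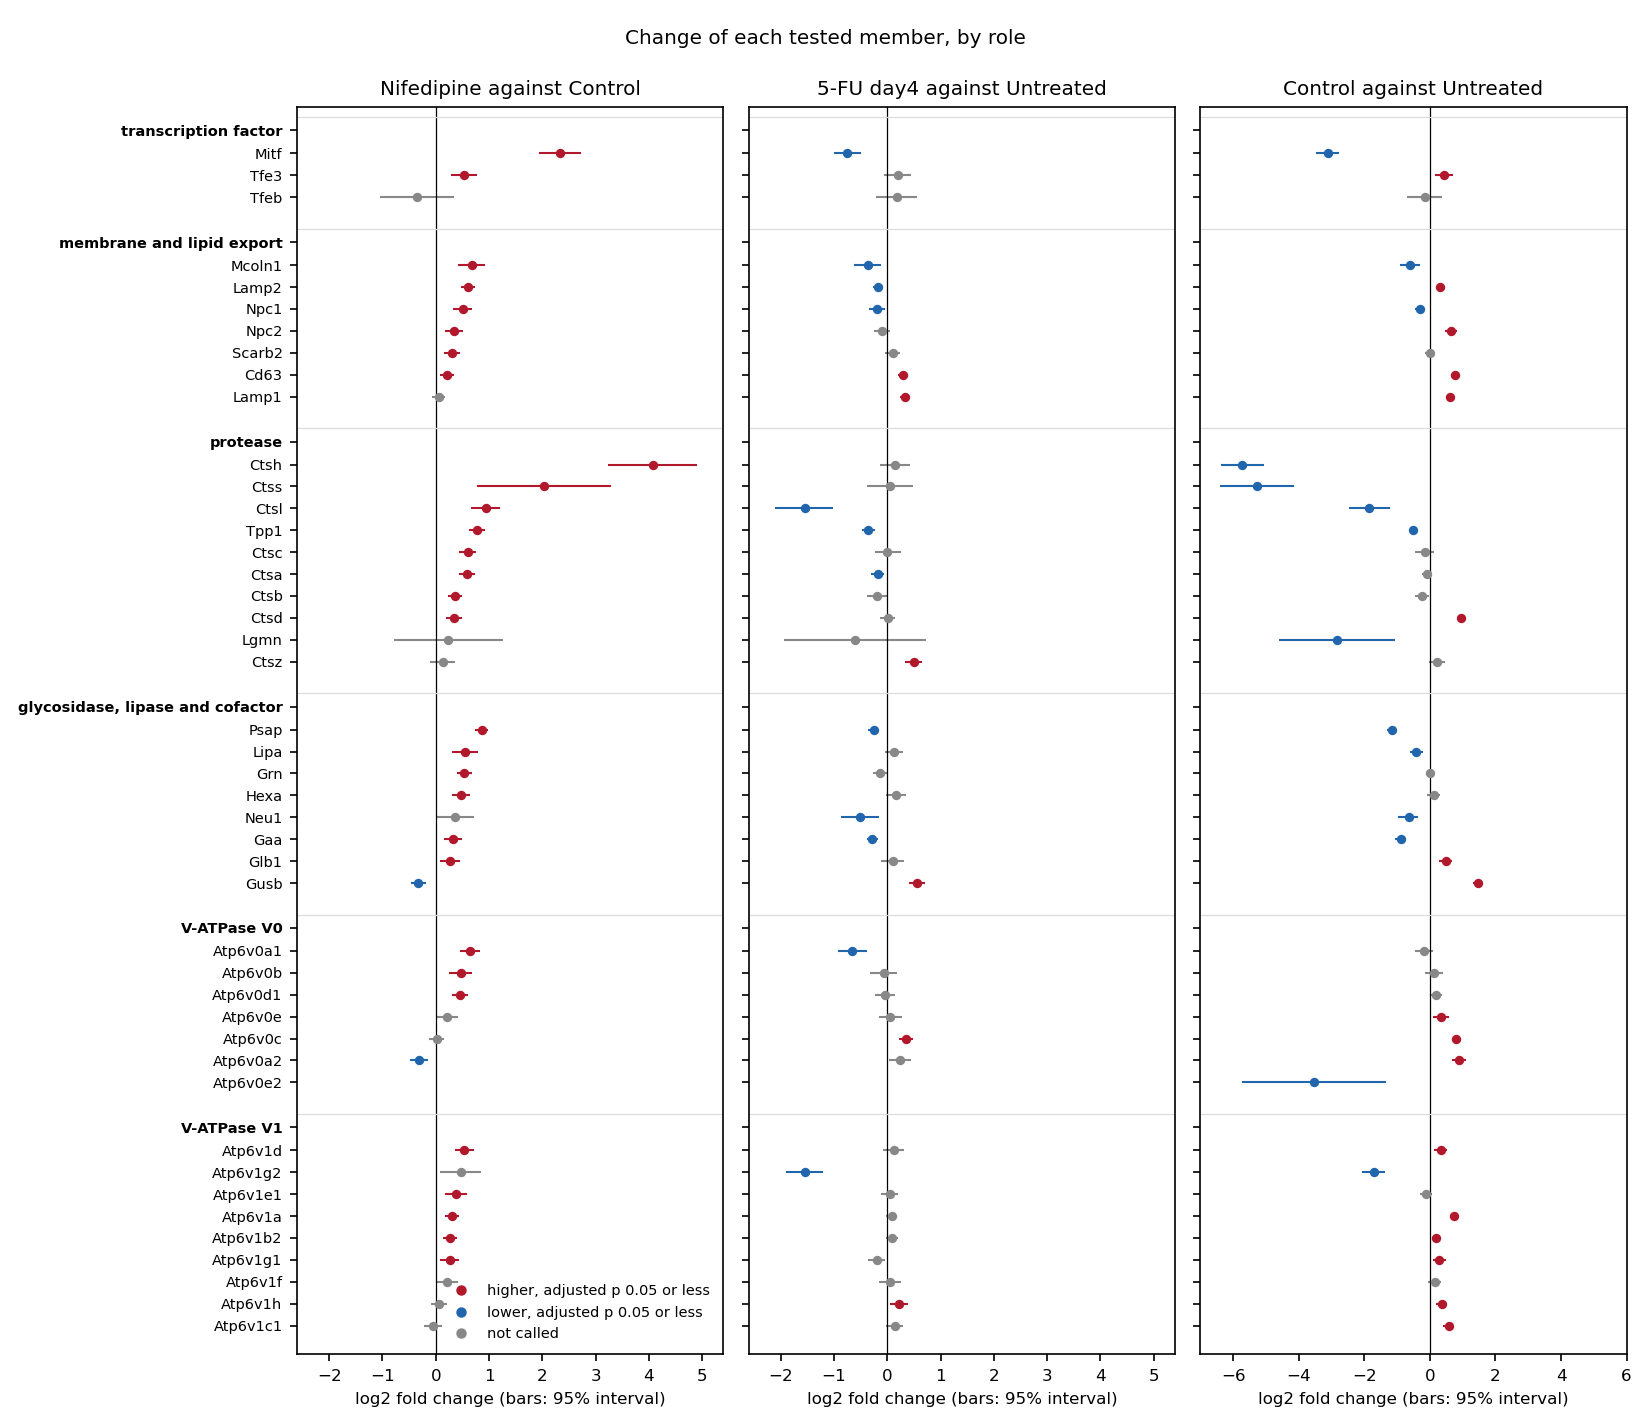
Log2 fold change with its 95% interval for every tested member, grouped by role, in Nifedipine against Control, 5-FU day4 against Untreated and Control against Untreated (3 panels from left to right, the last with a wider axis). Red marks members called higher, blue lower and grey not called, and 30 of 43 members are red in the first panel against 6 of 43 in the second.

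Among the transcription factors, Mitf (chr6:97807002-98021360, mm10), known for its role in melanocytes, mast cells and osteoclasts, changed most. Mitf had 3.92, 2.62, 2.92 and 3.32 RPKM in the Nifedipine libraries, against 0.735, 0.477 and 0.688 in the Control libraries. The groups did not overlap, and Mitf was higher by 2.33 ± 0.20 on the log2 scale (SE, adjusted p = 3.22e-08, edgeR). Marker genes of mast cells and osteoclasts had low summed levels, with 7 mast cell and basophil genes summing to 0.0992 to 0.576 RPKM in Nifedipine and 0.322 to 1.09 in Control, and 6 osteoclast genes to 0.232 to 0.674 in Nifedipine and 0.0902 to 0.246 in Control. Melanocyte genes were not examined. Tfe3 (chrX:7762537-7775202), which shares many targets with Tfeb, had 6.33, 6.22, 6.11 and 6.02 RPKM in Nifedipine, against 4.64, 4.06 and 4.06 in Control. All Nifedipine libraries were above Control, with a log2 change of 0.54 ± 0.12 (adjusted p = 0.00141). Tfeb (chr17:47737037-47792416) had 0.862, 2.11, 0.755 and 0.978 RPKM in Nifedipine, against 1.31, 1.93 and 1.25 in Control. The groups overlapped through Nifedipine library 2, the change of -0.35 did not pass (95% interval -1.05 to 0.34, adjusted p = 0.435), and without that library it was -0.79 (adjusted p = 0.0541).

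Among the membrane and lipid export genes, Lamp2 (chrX:38401357-38456463), whose A isoform is the receptor of chaperone-mediated autophagy, had 147, 124, 131 and 145 RPKM in Nifedipine, against 98.8, 87.4 and 84.1 in Control. No Nifedipine library was as low as any Control library, and the log2 change was 0.61 ± 0.07 (adjusted p = 1.24e-06). Lamp1 (chr8:13159161-13175338), the other main glycoprotein of the lysosomal membrane, had 87.4, 80.3, 86.9 and 90.0 RPKM in Nifedipine, against 83.4, 80.4 and 84.7 in Control. The Lamp1 groups overlapped, and its change of 0.06 did not pass (95% interval -0.07 to 0.18, adjusted p = 0.474). Mcoln1 (chr8:3500519-3515232), the calcium release channel of the lysosome, had 11.3, 12.1, 11.9 and 13.6 RPKM in Nifedipine, against 8.23, 6.82 and 7.86 in Control. Mcoln1 was higher in every Nifedipine library, by 0.68 ± 0.13 (adjusted p = 0.000289). Npc1 (chr18:12189694-12236432), which moves cholesterol out of the lysosome, had 17.6, 15.3, 19.1 and 20.2 RPKM in Nifedipine, against 12.5, 12.9 and 12.8 in Control. Npc1 was also higher without overlap, by 0.51 ± 0.09 (adjusted p = 0.000137). Its partner Npc2 was higher by 0.34, Scarb2, the transporter of glucocerebrosidase, by 0.30, and Cd63 by 0.21, a call lost without Control library 3 (0.18, adjusted p = 0.0734) and with the read total of the authors' RPKM values (0.26, adjusted p = 0.0607).

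Of the proteases, the aminopeptidase and endopeptidase gene Ctsh (chr9:90054267-90076095) had 4.08, 2.90, 4.40 and 4.28 RPKM in Nifedipine, against 0.101, 0.261 and 0.342 in Control. Ctsh was 16.9-fold higher (log2 change 4.07 ± 0.42, adjusted p = 3.64e-07), a fold that rests on 4, 8 and 11 reads in the Control libraries. Tpp1 (chr7:105744811-105752282), which removes tripeptides from protein ends, had 38.5, 36.1, 31.0 and 34.4 RPKM in Nifedipine, against 20.3, 20.4 and 20.5 in Control. The Tpp1 groups lay far apart, with a log2 change of 0.78 ± 0.08 (adjusted p = 2.87e-07). Ctsd (chr7:142375916-142387870), the main aspartyl protease of lysosomes, had 241, 215, 250 and 284 RPKM in Nifedipine, against 194, 195 and 197 in Control. It was higher in all 4 Nifedipine libraries, by 0.34 ± 0.07 (adjusted p = 0.000836). Ctss, the protease that trims the invariant chain of MHC class II, was higher by 2.04 and also rested on few Control reads, 14, 1 and 22, so that without Control library 3 it was 2.85. Ctsl, Ctsc, Ctsa and Ctsb were higher by 0.94, 0.60, 0.59 and 0.37, while Ctsz and Lgmn did not pass.

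Psap (chr10:60277628-60302600), the precursor of the saposins that help enzymes degrade sphingolipids, had the smallest p-value of the members. Its levels were 114, 103, 106 and 103 RPKM in Nifedipine, against 60.8, 58.9 and 56.4 in Control. Each Nifedipine library was well above each Control library, by 0.86 ± 0.06 on the log2 scale (adjusted p = 5.02e-09). Lipa, the acid lipase, was higher by 0.55, Grn, the precursor of granulins, by 0.54, Hexa, a subunit of hexosaminidase, by 0.48, Gaa, the glycogen-degrading glucosidase, by 0.32 and Glb1, the beta-galactosidase, by 0.27, the last lost without Control library 2 (adjusted p = 0.0909), Nifedipine library 3 (0.069) or Nifedipine library 4 (0.0666). Gusb (chr5:129989011-130003044), the beta-glucuronidase, went the other way, with 56.5, 50.5, 58.1 and 58.1 RPKM in Nifedipine, against 72.7, 65.4 and 73.1 in Control. All its Nifedipine libraries were below Control, with a log2 change of -0.33 ± 0.07 (adjusted p = 0.000721).

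In the V-ATPase, higher and lower genes stood side by side within V0. Atp6v0a1 (chr11:101009447-101063719) had 13.2, 14.0, 12.9 and 11.2 RPKM in Nifedipine, against 8.05, 8.31 and 8.14 in Control, and was higher by 0.65 ± 0.10 (adjusted p = 2.45e-05). Atp6v0a2 (chr5:124629052-124724455) had 17.9, 15.2, 19.1 and 18.9 RPKM in Nifedipine, against 24.1, 20.1 and 22.0 in Control. The groups did not overlap and Atp6v0a2 was lower, with a log2 change of -0.31 ± 0.09 (adjusted p = 0.00675), but the call was lost without Control library 1 (adjusted p = 0.0566) and with the read total of the authors' RPKM values (adjusted p = 0.094). An antisense transcript, 4930404A12Rik, shares 12.4% of its exon bases, and the kit used does not keep the strand. Atp6v1d, Atp6v0b and Atp6v0d1 were higher by 0.54, 0.47 and 0.46, the catalytic subunit gene Atp6v1a by 0.31, Atp6v1e1 by 0.38, Atp6v1b2 by 0.27 and Atp6v1g1 by 0.26. The Atp6v1g1 call was lost without Control library 1 (adjusted p = 0.0896) or 2 (0.114) or Nifedipine library 1 (0.0706) or 4 (0.0703), and with the read total of the authors' RPKM values (0.0501). Atp6v1g2 at 0.47, Atp6v0e at 0.22, Atp6v1f at 0.21, Atp6v1h at 0.07 and Atp6v1c1 at -0.05 did not pass, though Atp6v1g2 passed without Nifedipine library 1 (adjusted p = 0.0439) and Atp6v0e without Nifedipine library 2 (0.0419). The most abundant subunit gene, Atp6v0c, had a change of 0.02 and did not pass (adjusted p = 0.87).

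Other genes of the pathway were taken from 5 lists. Of 92 such genes tested, 47 (51.1%) were higher and 6 (6.52%) lower, against 25.8% and 24.2% of all genes. Of other hydrolases 18 of 32 were higher and 0 lower, with Sgsh, a heparan sulfate sulfatase, at 6.60 ± 0.663 RPKM in Nifedipine and 1.92 ± 0.104 in Control (log2 change 1.78, adjusted p = 1.07e-08), and Gm2a, the GM2 activator, higher by 1.32. Of other membrane proteins 12 of 19 were higher and 1 lower, Laptm5 by 0.88 and Laptm4a by 0.73, and the lower one, the endolysosomal cation channel gene Tpcn1, was at -0.89. Of genes that sort enzymes to the lysosome 4 of 12 were higher and 1 lower, with Cln8 at 0.78, Cln6 at 0.39 and the phosphodiesterase gene Nagpa, which uncovers the mannose 6-phosphate tag, at -0.67. Of assembly factors and partners of the V-ATPase 8 of 13 were higher and 1 lower, with Ncoa7 at 0.63, Oxr1 at 0.44 and the assembly factor gene Vma21 at -0.29, a call lost with the read total of the authors' RPKM values (adjusted p = 0.0605). Of 16 genes that control MiT factors 5 were higher, among them the folliculin partner Fnip1 at 0.77 and the fourth MiT gene Tfec at 0.53, and 3 were lower, among them the 14-3-3 gene Ywhag at -0.39 and the Rag GTPase gene Rragc at -0.33.

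Of the members with a promoter window that held CACGTG, 9 of 12 were higher with nifedipine and 0 lower (median 0.33), and of those whose window lacked it 16 of 23 were higher and 1 lower (median 0.48). Other marker genes moved with the comparison. The summed level of 12 monocyte and macrophage genes was 195 to 217 RPKM in Nifedipine and 56.6 to 71.2 in Control, and it was mostly Lyz2, the lysozyme gene, with 216, 193, 203 and 204 RPKM in Nifedipine, against 70.6, 55.8 and 65.2 in Control. Of the 4 genes of this list that were tested 3 were higher, with a median log2 change of 1.64. The integrin gene Itgam had 0.418, 0.2, 0.389 and 0.261 RPKM in Nifedipine, against 0.0271, 0.0814 and 0 in Control. The macrophage gene Csf1r had 0.251, 1.1, 0.569 and 0.574 RPKM in Nifedipine, against 0.33, 0.186 and 0.0889 in Control, and the groups overlapped. Among other macrophage genes, C1qa and C1qb had 0 reads in both groups. Adgre1 had 0 reads in Control and at most 0.0711 RPKM in Nifedipine. The summed level of 12 granulocyte genes was 7.89 to 11.8 RPKM in Nifedipine and 2.69 to 5.71 in Control, with Mpo, Elane, S100a8 and S100a9 at 0 in both groups. Of this list 1 of 2 genes tested was higher, and Csf3r, the receptor gene of granulocyte colony-stimulating factor, had 7.45, 6.26, 6.50 and 6.79 RPKM in Nifedipine, against 0.914, 0.769 and 0.800 in Control. The summed level of 8 megakaryocyte genes was 30.9 to 55.9 RPKM in Nifedipine and 66.4 to 157 in Control, and that of 20 mitosis genes, of which 13 were lower, was 590 to 762 in Nifedipine and 1000 to 1070 in Control. The summed level of the erythroid genes, of which 3 of 4 tested were lower, was 158 to 253 RPKM in Nifedipine and 316 to 396 in Control, and that of 12 lymphoid genes was 5.53 to 8.73 in Nifedipine and 11.5 to 13.4 in Control. Of the 10 HSC marker genes 7 were higher and 2 lower. The part of these shifts in the lysosomal changes was not tested.

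**Figure D4:**
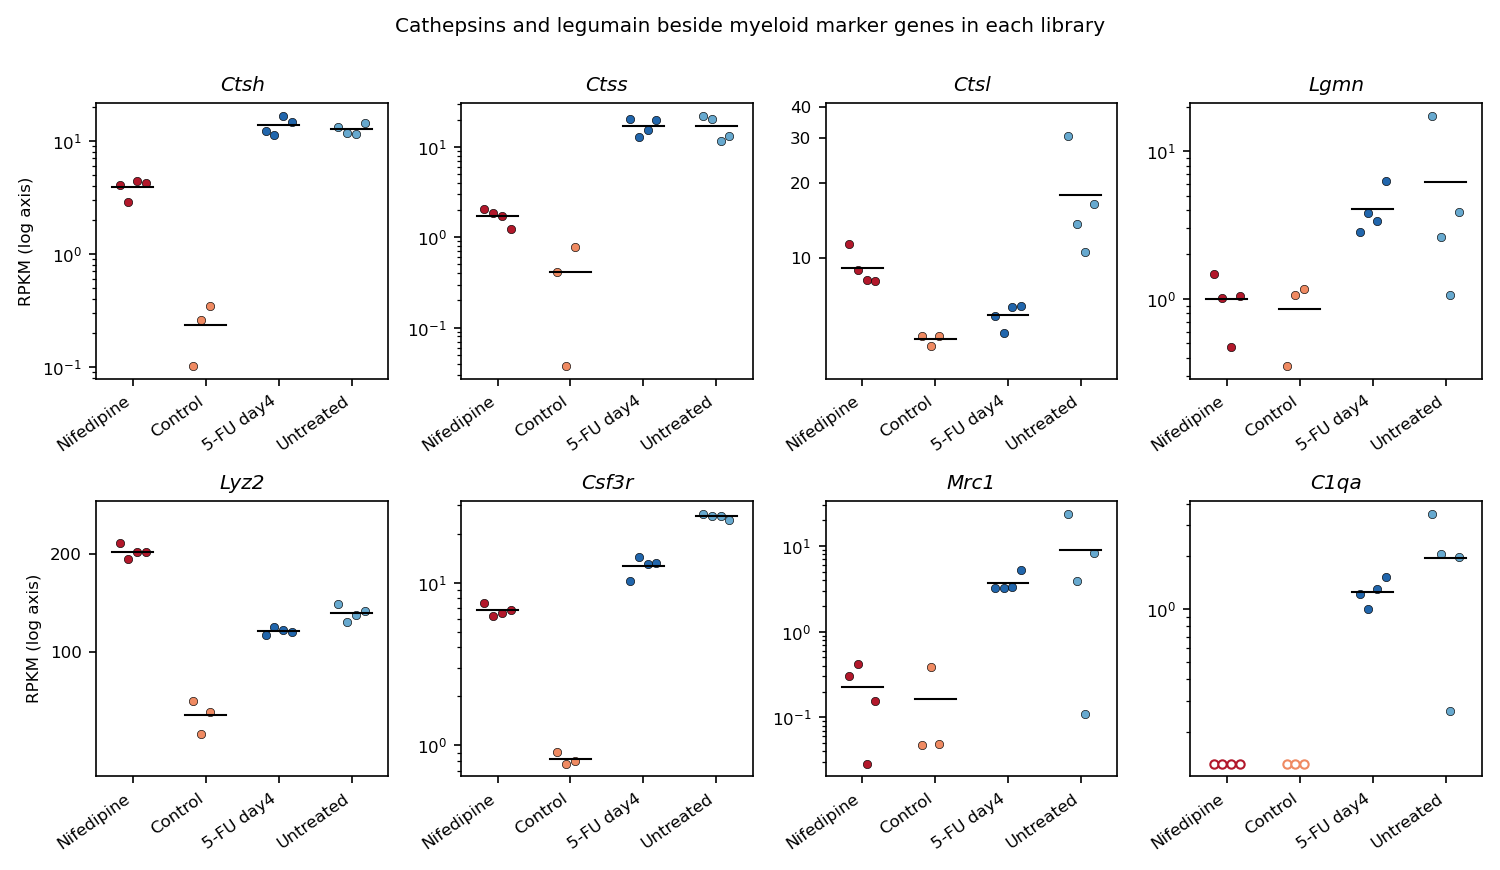
Level (RPKM, log axis) in each library of the proteases Ctsh, Ctss, Ctsl and Lgmn (top row) and of the myeloid genes Lyz2, Csf3r, Mrc1 and C1qa (bottom row), with groups from Nifedipine to Untreated and open circles at the bottom for 0 reads. Ctsh was at most 0.342 RPKM in the 3 Control libraries and at 2.90 RPKM or above in all others, and C1qa had 0 reads in all cultured libraries.

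The libraries of 5-FU day4 were compared with Untreated to ask how the genes stood when HSCs were drawn into division in the animal. The change was smaller and mixed. Of 43 members tested, 6 were higher and 12 lower, where 26.8% of all 13382 genes tested were higher and 23.8% lower (50.5% in either direction). On the TMM scale the share of higher members, 14.0%, was thus below the background and that of lower members, 27.9%, near it. The median log2 change of the members was 0.05, against -0.02 for all genes, and 5 members were higher and 12 lower without overlap, against 25.8% and 21.5% of all genes. The higher members were Gusb, Lamp1, Cd63, Ctsz, Atp6v0c and Atp6v1h, and the lower members were Atp6v1g2, Mitf, Tpp1, Ctsl, Atp6v0a1, Gaa, Psap, Lamp2, Ctsa, Neu1, Mcoln1 and Npc1. The split depended on the scaling. With the read total behind the authors' RPKM values in place of TMM 18 of 43 members were higher and 4 lower. Of all 13376 genes tested, 5148 were then higher and 1839 lower, so the share of higher members was no longer below the background. The median of all genes shifted by 0.20, and the share of higher genes among all called went to 73.7%, against 52.9%. Without both Untreated 3 and 5-FU day4 4, 5 members were higher and 10 lower, and without 5-FU day4 library 4 alone 8 were lower. Without Untreated 2 and 4, 5 were higher and 9 lower.

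Of the transcription factors, Mitf had 3.10, 2.58, 3.57 and 4.05 RPKM in 5-FU day4, against 5.66, 5.71, 5.59 and 5.99 in Untreated. The groups did not overlap, and Mitf fell by 0.75 on the log2 scale (SE 0.13, adjusted p = 0.000697). Tfe3 had 3.17, 3.46, 4.07 and 4.03 RPKM in 5-FU day4, against 3.5, 3.16, 3.37 and 3.06 in Untreated. Tfeb had 1.89, 1.88, 2.04 and 1.85 RPKM in 5-FU day4, against 1.36, 1.64, 2.17 and 1.74 in Untreated. Both overlapped between groups and did not pass, with changes of 0.20 (95% interval -0.06 to 0.45, adjusted p = 0.232) for Tfe3 and 0.18 (95% interval -0.21 to 0.56, adjusted p = 0.487) for Tfeb. With the read total of the authors' RPKM values Tfe3 passed (adjusted p = 0.0264).

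The membrane genes were split. Lamp1 had 71.1, 69.4, 71.6 and 68.9 RPKM in 5-FU day4, against 54.0, 58.3, 58.0 and 56.8 in Untreated, and was higher by 0.34 ± 0.05 (adjusted p = 0.000214). Cd63 (chr10:128908919-128912822) had 176, 163, 173 and 173 RPKM in 5-FU day4, against 144, 138, 146 and 139 in Untreated, and was higher by 0.30 ± 0.05 (adjusted p = 0.00052). In both genes every treated library was above every Untreated one, though the Cd63 call was lost when the trend of counts on exon length was removed (adjusted p = 0.325). Lamp2 had 65.6, 64.3, 63.9 and 65.8 RPKM in 5-FU day4, against 71.1, 79.3, 75.8 and 74 in Untreated. It was lower without overlap, with a log2 change of -0.18 ± 0.05 (adjusted p = 0.00746), but with the read total of the authors' RPKM values its change was 0.017. Mcoln1 had 8.44, 10.4, 9.40 and 8.70 RPKM in 5-FU day4, against 12, 9.53, 13.5 and 13.3 in Untreated. Npc1 had 13.9, 12.7, 14.5 and 14.6 RPKM in 5-FU day4, against 17.9, 17.1, 15.5 and 14.9 in Untreated. Mcoln1, where Untreated library 2 overlapped with the treated group, fell by 0.37 (adjusted p = 0.0388), and Npc1 by 0.20 (adjusted p = 0.0475), and the calls were lost in 10 (Mcoln1) and 12 (Npc1) of 20 alternative settings.

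Of the proteases, Ctsz (chr2:174427494-174439039), a carboxypeptidase, had 41.2, 42.3, 40.3 and 45.2 RPKM in 5-FU day4, against 29.6, 32.4, 32.8 and 27.6 in Untreated, and was higher by 0.50 ± 0.08 (adjusted p = 0.000546). Tpp1 had 22.8, 24.2, 25 and 21.6 RPKM in 5-FU day4, against 30.6, 30.3, 32.4 and 28.9 in Untreated, and fell by 0.36 ± 0.06 (adjusted p = 0.000768), a call lost with the read total of the authors' RPKM values (adjusted p = 0.0761). Neither gene overlapped between the groups. Ctsl (chr13:64361890-64370748), an endopeptidase, had 5.90, 5.06, 6.44 and 6.46 RPKM in 5-FU day4, against 30.5, 13.7, 10.6 and 16.5 in Untreated. The treated libraries were all lower, with a log2 change of -1.55 ± 0.28 (adjusted p = 0.000972), and without Untreated library 1, the highest, the change was -1.16. That library also had the highest Lgmn, 17.4 RPKM, and Mrc1, a macrophage and endothelial gene, at 23.8 RPKM, and the part of such cells in the Ctsl level was not tested. Ctsd had 96.1, 98.8, 108 and 106 RPKM in 5-FU day4, against 119, 99.9, 102 and 94.4 in Untreated. These overlapped fully, and the change of 0.01 did not pass (95% interval -0.14 to 0.15, adjusted p = 0.948), likewise for Ctsh at 0.14 and Ctss at 0.06. With the read total of the authors' RPKM values Ctsd was at 0.20 and passed (adjusted p = 0.0437).

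Gusb had 40.4, 37.1, 36.6 and 36.9 RPKM in 5-FU day4, against 26.4, 23.5, 29.3 and 25.4 in Untreated. It was higher without overlap, by 0.55 ± 0.07 (adjusted p = 0.000157). Psap, Gaa and Neu1, the sialidase, were lower, at -0.25, -0.28 and -0.51. Without TMM, on the read total of the authors' RPKM values, Psap was at -0.06, Gaa at -0.08 and Neu1 at -0.31 and none passed, and the Neu1 call was lost in 10 of 20 alternatives. Ctsa, the protease that protects Glb1 and Neu1, fell by 0.18 (adjusted p = 0.0327), a call lost in 8 of 20 alternatives, among them that read total, where it was at 0.02. In the V-ATPase, Atp6v0c (chr17:24163866-24169429), which forms the rotating ring of V0, had 88.0, 86.2, 90.5 and 87.7 RPKM in 5-FU day4, against 74.6, 66.8, 76.6 and 63.1 in Untreated. It was higher in each treated library, by 0.35 ± 0.07 (adjusted p = 0.00167), a call lost when the trend of counts on exon length was removed (adjusted p = 0.183). Atp6v1h, a regulatory subunit, was higher by 0.22 (adjusted p = 0.0485), a call lost in 14 of 20 alternatives.

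Atp6v1g2 (chr17:35235166-35238767), best known as the brain isoform of subunit G, had 4.83, 4.29, 5.93 and 3.63 RPKM in 5-FU day4, against 12, 14.7, 12.5 and 16.8 in Untreated. Each treated library was at less than any Untreated library, and Atp6v1g2 had the smallest p-value of the members, with a log2 change of -1.55 ± 0.18 (adjusted p = 5.08e-05). Its exons share 7.7% of their bases with Nfkbil1. Atp6v0a1 had 6.39, 5.08, 5.63 and 6.61 RPKM in 5-FU day4, against 10.6, 8.25, 8.05 and 11.4 in Untreated. It was lower without overlap, with a log2 change of -0.66 ± 0.14 (adjusted p = 0.00226). The remaining 11 of 15 V-ATPase genes tested did not pass, among them Atp6v1a at 0.08. With the read total of the authors' RPKM values 8 of the 15 were higher and 2 lower, with Atp6v1a at 0.28 (adjusted p = 0.00327). Of all 13376 genes tested, 5148 were then higher and 1839 lower. Once the trend of counts on exon length was removed, 2 of the 15 were higher and 6 lower, where 3527 of all 13382 genes were higher and 3115 lower.

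Of 94 other pathway genes tested, 17 (18.1%) were higher and 34 (36.2%) lower, against 26.8% and 23.8% of all genes. With the read total of the authors' RPKM values 28 were higher and 20 lower, where 5148 of all 13376 genes were higher and 1839 lower. Of 33 other hydrolases 2 were higher, Arsb at 1.09 and Acp5 at 1.52, and 14 lower, among them the protease gene Ctsf at -1.93 and the iduronidase gene Idua at -0.85. Of 20 other membrane proteins 2 were higher, the chloride transporter gene Clcn7 at 0.41 (adjusted p = 0.0625 without 5-FU day4 library 3, 0.0502 without Untreated library 1 and 0.0526 without Untreated library 4) and Abca2 at 0.22 (0.0572 without 5-FU day4 library 2), neither passing without Untreated 2 and 4 (0.0616 and 0.1), and 10 lower, among them Slc38a9, the arginine sensor of mTORC1, at -0.90 and the channel gene Mcoln2 at -0.70. Of 12 sorting genes 4 were higher, among them Sumf1 at 0.66 and Cln6 at 0.45, and 4 lower. Of 13 V-ATPase partners 3 were higher, among them Vma21 and Ncoa7, each at 0.50, and 3 lower, among them Dmxl2 at -0.52 and Dmxl1 at -0.31. The lower sorting genes included Gnptg at -0.44 and Gga3 at -0.30, and Gnptg, Gga3 and Dmxl1 did not pass with the read total of the authors' RPKM values, nor Gnptg without Untreated 2 and 4 (adjusted p = 0.0562). Of 16 genes that control MiT factors 6 were higher, among them the 14-3-3 genes Ywhag at 0.72 and Ywhab at 0.53, and 3 lower, among them the Rag GTPase gene Rragd at -1.85 (adjusted p = 0.0584 with all 4 groups in 1 fit) and Fnip1 at -0.36. The summed level of 20 mitosis genes was 821 to 979 RPKM in 5-FU day4 and 39.3 to 195 in Untreated, that of the stromal and endothelial genes 39.0 to 95 in 5-FU day4 and 53.0 to 288 in Untreated, and that of the monocyte and macrophage genes 125 to 131 in 5-FU day4 and 132 to 188 in Untreated. The granulocyte genes summed to 15.6 to 23.3 RPKM in 5-FU day4 and 37.7 to 45.6 in Untreated, the erythroid genes to 386 to 520 in 5-FU day4 and 102 to 3430 in Untreated, and 8 of the 10 HSC marker genes were lower. Their part in the lysosomal changes was not tested.

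The nifedipine and 5-FU comparisons share no library, so their calls can be set side by side. Of the 12 members lower after 5-FU, 10 were higher with nifedipine, which is 83.3% of the 12 and 33.3% of the 30 higher with nifedipine. They were the transcription factor gene Mitf, the membrane and lipid export genes Lamp2, Mcoln1 and Npc1, the proteases Ctsl, Ctsa and Tpp1, Psap, Gaa and Atp6v0a1. Over the 12577 genes tested in both comparisons, 1534 of the 3022 lower after 5-FU (50.8%) were higher with nifedipine. These were 47.0% of the 3266 higher with nifedipine, so that many genes outside the lysosome had opposite calls too. The members' 83.3% lay above the 50.8% and their 33.3% below the 47.0%, so the 2 shares went opposite ways. Of all tested members 69.8% were higher with nifedipine. The 10 depended on the scaling, since with the read total of the authors' RPKM values in both comparisons 3 were left, Mitf, Ctsl and Atp6v0a1, while Lamp2, Mcoln1, Npc1, Ctsa, Tpp1, Psap and Gaa were no longer called after 5-FU. Once the trend of counts on exon length was removed, 14 members had these opposite calls. With all 4 groups in 1 fit 13 had them, and with RLE factors or DESeq2 10. Without Untreated 2 and 4 there were 8, with Ctsa and Npc1 no longer called after 5-FU. The share of opposite calls over all genes was not computed under these alternatives. Gusb was higher after 5-FU and lower with nifedipine, and Cd63 was higher in both. Lamp1, Atp6v0c, Ctsz and Atp6v1h were higher after 5-FU and were not called with nifedipine. Whether the 2 changes differ in size was not tested gene by gene.

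**Figure D5:**
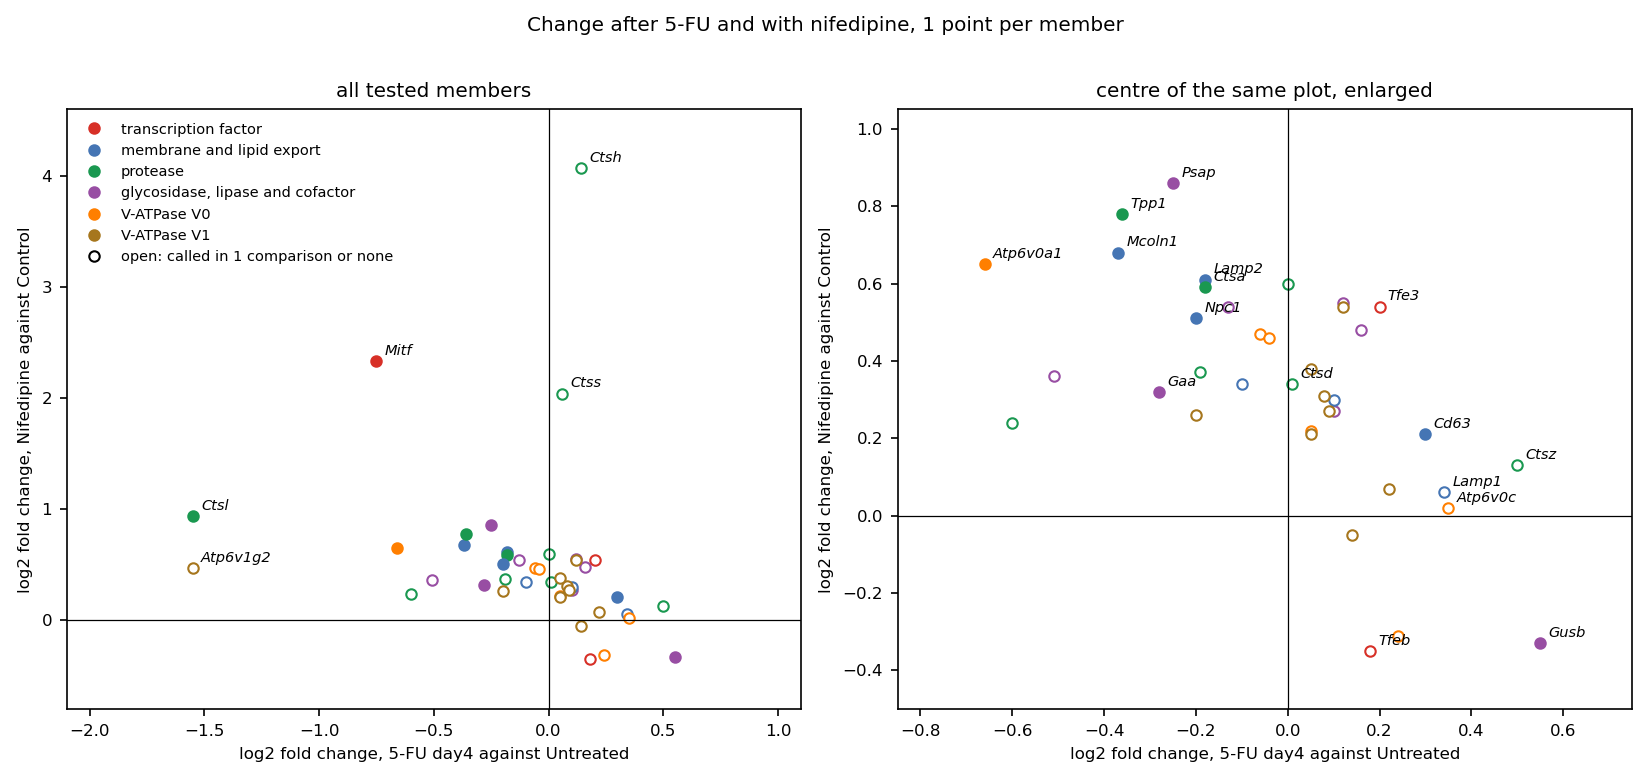
Log2 fold change in 5-FU day4 against Untreated (horizontal axis) and in Nifedipine against Control (vertical axis), with 1 point per tested member coloured by role, filled where the member was called in both comparisons (the right panel enlarges the centre). The filled points upper left of the origin are the 10 members lower after 5-FU and higher with nifedipine on the TMM scale, of which 3 (Mitf, Ctsl, Atp6v0a1) were left with the read total of the authors' RPKM values. Once the trend of counts on exon length was removed, 14 members had these opposite calls.

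Control was compared with Untreated to show where HSCs cultured without nifedipine stood. The comparison shares its Control libraries with the nifedipine comparison and its Untreated libraries with the 5-FU comparison, and culture, experiment and sequencing run cannot be told apart in it. Of 44 members tested, 17 were higher and 14 lower, where 35.8% of all 13518 genes tested were higher and 36.2% lower (72% in either direction). In 15 members every Control library lay above every Untreated library, and in 15 below, against 36.3% and 35.6% of all genes. The median log2 change of the members was 0.06, against -0.05 for all genes. The V-ATPase had 9 of 16 genes higher and 2 lower (5 and 5 once the trend of counts on exon length was removed, 4 and 2 without Untreated 2 and 4), the proteases 1 of 10 higher and 5 lower, the glycosidases, lipase and cofactors 2 of 8 higher and 4 lower, and the membrane and lipid export genes 4 of 7 higher and 2 lower. Of the higher V-ATPase genes, Atp6v0e lost its call without Untreated 1, 2 or 4 or Control 1 or 3 (adjusted p = 0.0574 to 0.119), Atp6v1b2 without Untreated 1 or 4 or Control 1 or 3 (0.0926 to 0.132), Atp6v1g1 without Untreated 1 or 4 or Control 3 (0.0782 to 0.0972) and Atp6v1d without Control 1 (0.0579). Removing the trend of counts on exon length put Atp6v0e at -0.22, Atp6v1g1 at -0.17, Atp6v1d at -0.04 and Atp6v1b2 at 0.11, and none passed. Without both Untreated 2 and 4, 11 members were higher and 14 lower, with Atp6v1h and Tfe3 no longer called beside these 4. With the read total of the authors' RPKM values in place of TMM 23 of 44 members were higher and 11 lower, where 5849 of all 13492 genes were higher and 3830 lower. The median of all genes then shifted by 0.24, and the share of higher genes among all called was 60.4%, against 49.8%.

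Mitf averaged 0.633 ± 0.137 RPKM in Control and 5.74 ± 0.176 in Untreated (SD, n = 3 and 4), a log2 change of -3.12 ± 0.17 (SE, adjusted p = 2.43e-07). Tfe3 averaged 4.25 ± 0.335 RPKM in Control and 3.27 ± 0.198 in Untreated, and was higher by 0.43 (adjusted p = 0.0178), a call lost without Untreated library 4 (adjusted p = 0.055) or Control library 1 (0.0689) and at a minimum of 10 CPM, where the change was 0.26 (0.103). Tfeb averaged 1.5 ± 0.376 RPKM in Control and 1.73 ± 0.333 in Untreated, and its change of -0.16 did not pass (adjusted p = 0.623). Of the 3 MiT genes, Mitf was thus low in every cultured Control library, Tfe3 was higher with a call lost under some alternatives, and Tfeb was not called.

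Ctsh fell to 0.101, 0.261 and 0.342 RPKM in Control, against 13.3, 11.9, 11.5 and 14.4 in Untreated. The log2 change was -5.73 ± 0.34 (adjusted p = 3.6e-07), from 23 reads in all Control libraries together and 1235 in Untreated. Ctss fell to 0.409, 0.0376 and 0.790 RPKM in Control, against 22.0, 20.5, 11.5 and 13.3 in Untreated, a log2 change of -5.27 (adjusted p = 2.4e-05). Every Control library was far below every Untreated library for both genes, and Ctsl and Lgmn were lower too, at -1.85 and -2.84. Without Untreated library 1 Lgmn was at -1.52, and without Control library 3 Ctss was at -6.04. Lgmn did not pass without Control library 1 (adjusted p = 0.0742) or 2 (0.0508). Psap averaged 58.7 ± 2.17 RPKM in Control and 137 ± 9.23 in Untreated, and fell by 1.17 ± 0.07 (adjusted p = 3.82e-07). Gaa (chr11:119267963-119285458) had 15.7, 14.0 and 16.7 RPKM in Control, against 28.3, 29.8, 29.3 and 31.6 in Untreated, and fell by 0.89 ± 0.08 (adjusted p = 7.7e-06). Atp6v1g2 had 4.56, 4.04 and 3.73 RPKM in Control, against 12, 14.7, 12.5 and 16.8 in Untreated, and fell by 1.71 ± 0.18 (adjusted p = 1.53e-05). None of these 3 overlapped between the groups. Mcoln1 and Npc1 were lower, at -0.61 and -0.31, but with the read total of the authors' RPKM values they were at -0.37 (adjusted p = 0.0637) and -0.07 (0.515), and Npc1 was at -0.08 (0.399) once the trend of counts on exon length was removed.

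Gusb averaged 70.4 ± 4.35 RPKM in Control and 26.2 ± 2.44 in Untreated, and was higher by 1.48 ± 0.08 (adjusted p = 2.22e-07). Cd63 had 240, 239 and 225 RPKM in Control, against 144, 138, 146 and 139 in Untreated, and was higher by 0.78 ± 0.05 (adjusted p = 7.93e-07). Ctsd averaged 195 ± 1.36 RPKM in Control and 104 ± 10.5 in Untreated, and was higher by 0.96 ± 0.07 (adjusted p = 2.03e-06). In these genes all Control libraries were above all Untreated libraries. Atp6v0c had 120, 116 and 119 RPKM in Control, against 74.6, 66.8, 76.6 and 63.1 in Untreated, and was higher by 0.80 ± 0.07 (adjusted p = 7.13e-06). Under the 18 alternative settings the log2 change was 0.36 to 1.02 for Cd63 and 0.37 to 1.04 for Atp6v0c. Atp6v1a (chr16:44085404-44139711), the catalytic subunit gene of V1, had 68.9, 59.9 and 62.5 RPKM in Control, against 39.8, 38.6, 43.1 and 38.0 in Untreated, and was higher by 0.73 ± 0.07 (adjusted p = 7.42e-06). Lamp1 and Lamp2 were higher by 0.60 and 0.32. Atp6v0e2, tested in this comparison alone, fell by 3.53 (adjusted p = 0.0168) on 3 reads in Control and 40 in Untreated, and did not pass without Control library 2 (adjusted p = 0.0608) or 3 (0.0623). Without Untreated library 1, 3 or 4 it fell below the low-count filter and was not tested, and without Control library 1 the Control libraries had 0 reads, so that the fitted change of -6.34 is no bound.

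Of 94 other pathway genes 30 (31.9%) were higher and 40 (42.6%) lower, against 35.8% and 36.2% of all genes. With the read total of the authors' RPKM values 39 were higher and 25 lower, where 5849 of all 13492 genes were higher and 3830 lower. The mannose 6-phosphate receptor genes parted, with M6pr higher by 0.74 and Igf2r lower (log2 change -4.21), at 0.984 RPKM in Control and 18.8 in Untreated. Other lower genes were Ctsf at -4.88, Laptm4b at -2.99, Gm2a at -2.09, Slc38a9 at -1.48, Cln8 at -0.75, Dmxl1 at -0.66, Fnip1 at -0.62, Dmxl2 at -0.47 and Flcn at -0.46, and other higher genes were Ywhag at 1.52, Nagpa at 1.44, Vma21 at 1.03, Rragc at 1.02, Ostm1 at 1.01, Atp6ap2 at 0.88, Dnase2a at 0.84, Clcn7 at 0.53 and Asah1 at 0.35. Once the trend of counts on exon length was removed, Dmxl1 was at -0.03 and Dmxl2 at 0.04 and neither passed. The monocyte and macrophage genes summed to 56.6 to 71.2 RPKM in Control and 132 to 188 in Untreated, and C1qa, which had 0 reads in Control, was at 3.5, 2.07, 0.264 and 1.98 RPKM in Untreated. The granulocyte genes summed to 2.69 to 5.71 RPKM in Control and 37.7 to 45.6 in Untreated, the erythroid genes to 316 to 396 in Control and 102 to 3430 in Untreated, and 8 of 10 HSC marker genes were lower. The stromal and endothelial genes, of which 11 of 12 were lower, and the 20 mitosis genes, all higher, moved with this comparison too, and their part in the lysosomal changes was not tested.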

How the data were processed

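The deposited table of each library gives, per the file headers, exon read counts and RPKM values per feature, and the reads were placed on mm10, per the submitters' processing notes. The sources used here name no aligner, counter or annotation. The counts are the authors' whole-number exon reads, and the RPKM values are the authors' counts per kilobase scaled by a read total, from which exon lengths and that total were recovered here. Libraries were made with Nextera XT, per the labels' protocols, from cDNA without strand, so overlapping genes share reads, as for Ctsd and Gm49369, which share 31.5% of the exon bases of Ctsd, Ctsl (28.2%) and Ctsa (22.3%).

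Scaffold copies were added up (48737 features became 46120 genes, and 28 copies stayed split). Genes passing the filterByExpr filter of edgeR were tested per comparison with the edgeR quasi-likelihood test on TMM-scaled counts, with the 2 groups compared in the fit and no covariate, and called at a Benjamini-Hochberg adjusted p of 0.05 over all genes tested. R 4.3.3, edgeR 4.0.16, limma 3.58.1 and DESeq2 1.42.0 were used, and the fit was tested on simulated counts. Levels are RPKM recomputed from the counts with TMM, and 95% intervals are normal approximations from the SE. No 2 libraries of a group agreed within sampling noise (chi-square per degree of freedom at least 4.69), so none was taken for a copy of another. This does not show that they are separate biological samples. Alternatives were RLE factors, the read total of the RPKM values, no low-count filter, 10 CPM, DESeq2, limma-voom, all 4 groups in 1 fit, a replicate block, exon length offsets, features as deposited, and leaving out libraries.

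Members, gene lists and marker lists were chosen with earlier results of these data known. Per-library values are given for the 5 called members with the smallest p in each direction and always for Tfeb, Tfe3, Mitf, Mcoln1, Lamp1, Lamp2, Ctsd and Npc1, and also, chosen after their values were seen, for Atp6v0a1 with nifedipine and Ctss in Control against Untreated. Of other pathway genes, the 2 called with the smallest p in each direction per list are named, and Tcirg1 was added, after its values were seen, to complete its subunit. Gene coordinates are the deposited tables' (mm10), given 1-based, exon overlaps are from GENCODE, and promoter sequences are from RefSeq on GRCm38.p6.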

Additional observations from a re-analysis of the deposited data

Results flagged for a closer look

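In 7 of 132 sets of 4 libraries (1 member in 1 group each), 1 library lay far from the other 3 by Dixon's ratio. Chance gives about 1 in 20, or 6.6 of 132. Tfeb was at 2.11 RPKM in Nifedipine library 2, against 0.755 to 0.978 in the others of its group, and this library set the overlap of Tfeb with Control. In the same library Cd63 was at 241 RPKM, against 279 to 286, and Atp6v1b2 at 41.9, against 45.5 to 45.9. Gusb was at 40.4 RPKM in 5-FU day4 library 1, against 36.6 to 37.1, and Atp6v0a2 at 16.1 RPKM in 5-FU day4 library 2, against 13.5 to 13.9. Grn was at 46.2 RPKM in Untreated library 4, against 51.5 to 52.4, and Atp6v1e1 at 27.2 RPKM in Untreated library 3, against 28.8 to 29.0.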

How the results depend on the processing

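With the read total behind the authors' RPKM values in place of TMM, the 5-FU comparison called 18 members higher and 4 lower, against 6 and 12, and 1839 genes lower, against 3184, while Lamp2 went to 0.017. The nifedipine comparison then called 1 member lower, and Tfeb in Control against Untreated went to 0.072. With a minimum of 10 CPM, 10 members were higher in Control against Untreated, against 17. Ctsd after 5-FU, not called, was at -0.006 with RLE factors, -0.035 at 10 CPM, -0.007 with DESeq2, -0.022 with all 4 groups in 1 fit, -0.11 with exon length offsets, -0.005 with features as deposited, -0.022 without Untreated 3 and 5-FU day4 4 and -0.083 without Untreated 2 and 4, but at 0.20 and called with the read total (adjusted p = 0.0437). Without Untreated 2 and 4, 11 members were higher in Control against Untreated. Leaving out each library in turn gave Ctsd after 5-FU -0.037 to 0.078, 5 to 7 members higher and 8 to 12 lower after 5-FU, 28 to 31 higher and 1 to 2 lower with nifedipine, and 13 to 17 higher and 12 to 14 lower in Control against Untreated. The cause of these shifts was not tested. Without TMM Cd63 averaged 212 RPKM in Control, 178 in 5-FU day4 and 153 in Untreated. TCACGTGA was in windows of 6 members and its form longer by 1 base on each side in those of 0, against 12 members with CACGTG. With the replicate number as a block, 29 members were higher and 2 lower with nifedipine, 6 and 9 after 5-FU, and 13 and 12 in Control against Untreated. Same-number correlations between libraries were 0.012 to 0.048 with nifedipine, -0.141 to 0.162 after 5-FU and 0.004 to 0.033 in Control and Untreated. Those of different numbers were -0.05 to 0.023, -0.453 to 0.384 and -0.035 to 0.015, in the same order. These values do not show that the numbers pair the libraries, and they cannot exclude it. The other values recomputed were counts over all genes and changes of the members set by rule for per-library values. Of these, 880 kept their direction and side of the threshold, 37 no longer passed and 2 passed that had not. These 2 were Ctsd and Tfe3 after 5-FU with the read total. Members outside this tally also passed under an alternative alone, among them Atp6v1a after 5-FU with the read total (0.28, adjusted p = 0.00327, edgeR). Genes with few reads, such as Ctsh and Ctss in Control, limit the precision of their folds.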
